A study of Mus musculus with 24 samples.

Results

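The genes described here encode 9 receptors of innate immunity and 1 adaptor: the Toll-like receptors Tlr1, Tlr2, Tlr3, Tlr4, Tlr7 and Tlr9, the cytosolic RNA helicases Ddx58 (RIG-I), Ifih1 (MDA5) and Dhx58 (LGP2), and Mavs, the mitochondrial adaptor of the helicases. They were taken by gene symbol from the array's annotation, and all 10 of 10 were found among 22180 named genes, each with 1 probe set. Expression was measured on 24 arrays, 1 per mouse, of cortex from males taken at 18 days of age. The tested mice of each strain were given conduritol B-epoxide (CBE), a compound that blocks glucocerebrosidase, the lysosomal enzyme lost in Gaucher disease, as a chemical model of its neuronopathic form. The daily intraperitoneal dose was 25 mg per kg, given between days 8 and 18. The control mice of each strain received PBS (phosphate-buffered saline) over the same days. The strains were SV129, FVB, C57 (C57BL/6JOlaHsd) and C3H, which made 8 groups of 3 mice. The labels name no transgene or engineered allele. They give no substrain for C3H, of which some carry a missense mutation that disables the Tlr4 protein, and the array measures the transcript only.

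Toll-like receptors recognise microbial molecules and, in some settings, material from the host. Tlr1, Tlr2 and Tlr4 sit on the cell surface, where Tlr2 pairs with Tlr1 to bind bacterial lipopeptides and Tlr4 binds bacterial lipopolysaccharide. Tlr3, Tlr7 and Tlr9 sit in endosomes and bind double-stranded RNA, single-stranded RNA and unmethylated CpG DNA. In the cytosol Ddx58 and Ifih1 bind viral-type RNA and signal through Mavs to switch on type I interferon, while Dhx58 lacks the signalling domains of its relatives and modulates them. The helicase genes are themselves induced by interferon. In brain, microglia express most Toll-like receptors, and astrocytes also carry Tlr3.

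Array values are log2 signal as deposited. The 24 array medians lay between 4.14 and 4.22, and arrays of 1 group correlated with Pearson r from 0.989 to 0.993. Neuronal markers were read as a check for neural tissue: the synaptic gene Snap25 lay between 13.1 and 13.4 and the excitatory marker Slc17a7 between 11.0 and 11.4 on the 24 arrays. The lowest of the listed neuronal markers, Gad1, lay between 4.49 and 5.16. These genes do not tell cortex from other brain regions, so the cortex label itself was not tested. One array, C3H CBE array 1, stood apart for these genes and was singled out by their values. It had the highest value of its group for Ifih1, Ddx58, Dhx58, Tlr2, Tlr3, Tlr4, Tlr7, Tlr9 and Mavs, and the highest mean microglia marker level of all 24 arrays, 7.11 against 6.58 and 6.71 on the other C3H CBE arrays. Where leaving it out moved a printed C3H change, class median or count of the members by over 1.5 times, both values are given. C3H values of other genes are with all arrays only. Nothing in the sources used here gives a scan date or batch.

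Promoter windows help to show how the genes differ before their values are read. RefSeq windows of build GRCm38.p6, 250 bases before to 50 after an annotated start, were at hand for 7 of the 10 genes. They were searched on both strands for GAAA, any 2 bases and GAAA (like the interferon-stimulated response element), for TTC, any 3 bases and GAA (like the gamma-activated site bound by STAT factors), and for GGGA, any 4 bases and CC (like the kappaB site). These letters occur in 3.44%, 8.3% and 20.7% of the 32851 windows of the same length. The first motif was found in 2 of the 7 genes searched, Ifih1 and Ddx58, the pair of members with the largest changes reported below. Tlr4, Tlr7 and Dhx58 had no window, so whether they hold it is not known. Both matches lie after the start, at positions 33 to 42 in Ifih1 and 3 to 12 (on the other strand) in Ddx58. Tlr2 (2 places) and Tlr3 (3 places) held kappaB-like matches and Tlr1 a gamma-activated-site-like match in 1 of its 2 windows, while Mavs and Tlr9 held none. A match describes the letters only and is not a measured binding site. The 4 windows shown are those of the members past the test threshold that were in the table and held a match, written 5′ to 3′ on the gene's own strand, with matches in capitals. They lie on the minus strand at chr2:62646206-62646505 (Ifih1), chr4:40239776-40240075 (Ddx58), chr8:45410331-45410630 (Tlr3) and chr3:83841559-83841858 (Tlr2).
Ifih1: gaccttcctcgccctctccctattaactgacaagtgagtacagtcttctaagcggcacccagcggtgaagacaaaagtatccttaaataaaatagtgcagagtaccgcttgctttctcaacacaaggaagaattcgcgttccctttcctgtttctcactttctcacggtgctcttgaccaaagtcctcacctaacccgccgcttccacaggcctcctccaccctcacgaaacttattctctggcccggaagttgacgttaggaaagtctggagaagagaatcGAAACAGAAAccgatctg
Ddx58: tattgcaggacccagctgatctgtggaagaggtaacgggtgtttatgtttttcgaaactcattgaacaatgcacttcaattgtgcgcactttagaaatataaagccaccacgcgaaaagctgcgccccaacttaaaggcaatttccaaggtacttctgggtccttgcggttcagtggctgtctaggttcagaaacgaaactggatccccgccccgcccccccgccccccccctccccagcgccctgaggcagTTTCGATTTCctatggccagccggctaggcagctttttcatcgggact
Tlr3: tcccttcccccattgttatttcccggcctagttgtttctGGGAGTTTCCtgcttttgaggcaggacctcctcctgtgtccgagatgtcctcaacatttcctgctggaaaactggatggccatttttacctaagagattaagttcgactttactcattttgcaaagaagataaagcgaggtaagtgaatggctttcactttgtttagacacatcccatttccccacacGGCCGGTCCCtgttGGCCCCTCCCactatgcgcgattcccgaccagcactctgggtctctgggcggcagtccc
Tlr2: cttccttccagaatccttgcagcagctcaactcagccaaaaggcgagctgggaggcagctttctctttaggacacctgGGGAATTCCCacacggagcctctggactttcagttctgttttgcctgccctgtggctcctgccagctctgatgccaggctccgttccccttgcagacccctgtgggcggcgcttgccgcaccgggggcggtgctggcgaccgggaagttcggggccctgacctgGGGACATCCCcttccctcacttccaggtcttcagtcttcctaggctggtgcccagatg

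Averaged over the 4 strains, CBE raised all 3 cytosolic helicases, 2 of the 3 endosomal receptors and 1 of the 3 surface receptors. Ifih1 was 2.0-fold higher (log2 change 1.00 ± 0.11, standard error of the fit, adjusted p = 7.9e-06), and Ddx58 1.60-fold (0.68 ± 0.09, adjusted p = 1.3e-04). Tlr7 rose 1.44-fold (0.53 ± 0.10, adjusted p = 0.0061) and Tlr2 1.28-fold (0.35 ± 0.06, adjusted p = 0.0048). Dhx58 and Tlr3 rose 1.15-fold each (0.20 ± 0.04 each, adjusted p = 0.024 and 0.014). Tlr1, Tlr4, Tlr9 and Mavs did not pass. Tests were limma contrasts over all 22180 genes with Benjamini-Hochberg adjustment at 0.05, and 6 of the 10 genes were higher against 0.609% of all genes. The median change of the 10 was 0.20, beside -0.01 for all genes. The change was positive in all 4 strains for 8 of 10 members and for 6.38% of all genes, though the small SV129 values of Tlr3, Tlr4 and Tlr9 turned negative with each array centred on its median, and those of Tlr4 and Tlr9 also after quantile normalization. In whole cortex, more cells of a type and more RNA per cell cannot be told apart.

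**Figure D1:**
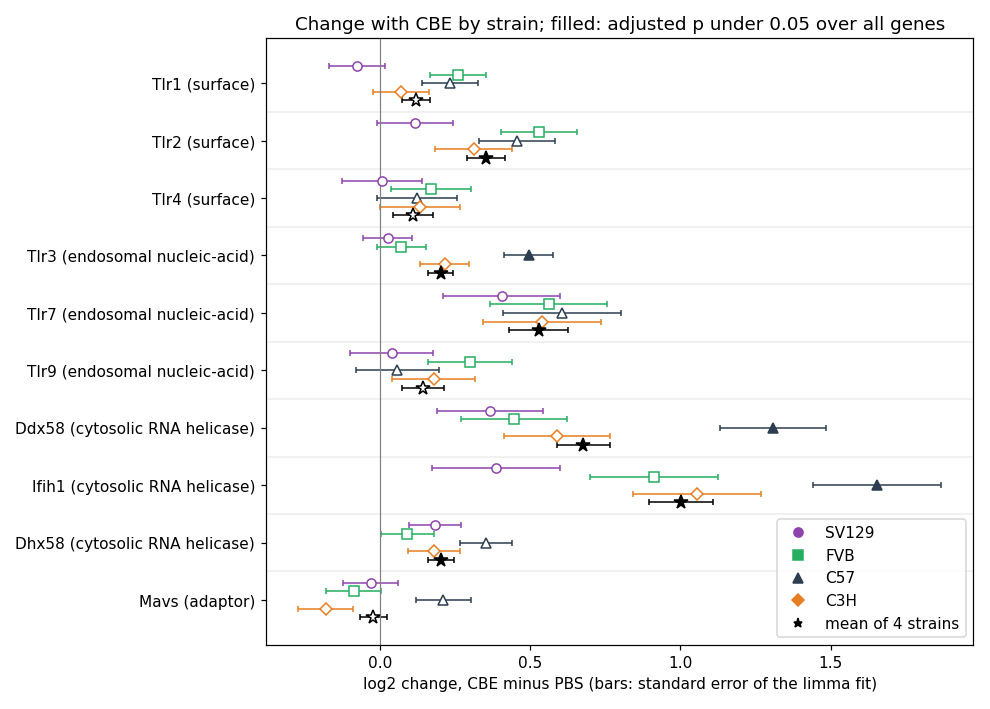
Log2 change with CBE (x axis, CBE minus PBS) for each gene (y axis), by strain (n = 3 CBE and 3 PBS mice each) and for the mean of the 4 strains, with standard errors of the limma fit. Filled symbols mark adjusted p under 0.05 over all genes; the largest changes are those of Ifih1 and Ddx58 in C57, at 1.66 and 1.31.

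Ifih1, which recognises long double-stranded RNA, changed the most of the 10. In C57 it measured 7.18, 7.54 and 7.80 in CBE mice, against 5.82, 5.74 and 5.97 in PBS mice. The C57 change was 1.66 ± 0.21, or 3.15-fold (adjusted p = 2.0e-04). In C3H the CBE mice had 7.56, 6.59 and 6.38 and the PBS mice 5.90, 5.73 and 5.73, a change of 1.06 ± 0.21 (adjusted p = 0.09). The 3 CBE mice lay above the 3 PBS mice in both strains, but C3H CBE array 1 lay above the other C3H CBE arrays, and the C3H change without it was 0.70. In FVB the values were 6.13, 6.63 and 6.59 in CBE mice, against 5.63, 5.59 and 5.40 in PBS mice (0.91 ± 0.21, adjusted p = 0.13). In SV129 they were 6.22, 5.68 and 5.99 in CBE mice, against 5.56, 5.59 and 5.58 in PBS mice (0.39 ± 0.21, adjusted p = 0.46). The groups were separate in these strains too, and all 12 CBE mice lay above their strain's PBS mean. The FVB change passed when C3H CBE array 1 was left out (adjusted p = 0.0024). That array is not in the FVB contrast, so the estimate stayed and only the pooled spread became smaller.

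Ddx58, which recognises short RNA with a triphosphate end in the cytosol, passed in C57 and in the mean of 4 strains. C57 CBE mice had 5.61, 5.96 and 6.24 and C57 PBS mice 4.63, 4.68 and 4.59, a rise of 1.31 ± 0.18, or 2.48-fold (adjusted p = 3.4e-04). In C3H the values were 5.75, 4.70 and 4.88 in CBE mice, against 4.38, 4.56 and 4.63 in PBS mice. That C3H change was 0.59 ± 0.18 (adjusted p = 0.63) and came to 0.27 without C3H CBE array 1. FVB CBE mice had 4.88, 5.0 and 5.06 and FVB PBS mice 4.61, 4.50 and 4.50 (0.45 ± 0.18, adjusted p = 0.68). SV129 CBE mice had 4.65, 4.66 and 4.61 and SV129 PBS mice 4.38, 4.30 and 4.15 (0.37 ± 0.18, adjusted p = 0.39). CBE and PBS mice were separate in every strain, and 12 of 12 CBE mice lay above their strain's PBS mean.

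Dhx58 was measured near the lower end of the scale, under the median of all probe sets (4.18) on each of the 24 arrays, where a change can be compressed. C57 CBE mice had 3.88, 4.11 and 4.10 and C57 PBS mice 3.74, 3.57 and 3.72 (0.35 ± 0.09, adjusted p = 0.12). SV129 CBE mice had 3.62, 3.68 and 3.72 and SV129 PBS mice 3.41, 3.51 and 3.55 (0.18 ± 0.09, adjusted p = 0.38). In FVB (0.09) and C3H (0.18, or 0.10 without C3H CBE array 1) the groups overlapped. Its call in the mean of 4 strains was the least stable of the 6, since leaving out any of 7 single arrays gave adjusted p from 0.050 to 0.06. Those arrays were SV129 CBE 3, FVB PBS 2, FVB CBE 2, C57 PBS 2, C57 CBE 2 and 3 and C3H PBS 3.

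Mavs, on which Ddx58 and Ifih1 converge, changed by -0.02 in the mean of 4 strains (95% interval -0.12 to 0.07, adjusted p = 0.92). C57 CBE mice had 5.87, 5.96 and 5.99 and C57 PBS mice 5.70, 5.80 and 5.67, so that all CBE mice were above, by 0.21 ± 0.09 (adjusted p = 0.79). The C3H change was -0.18 ± 0.09 (adjusted p = 1.0), with 5.69, 5.35 and 5.67 in CBE mice, against 5.73, 5.90 and 5.62 in PBS mice. FVB and SV129 gave -0.09 and -0.03, and CBE and PBS mice overlapped in those strains and in C3H.

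**Figure D2:**
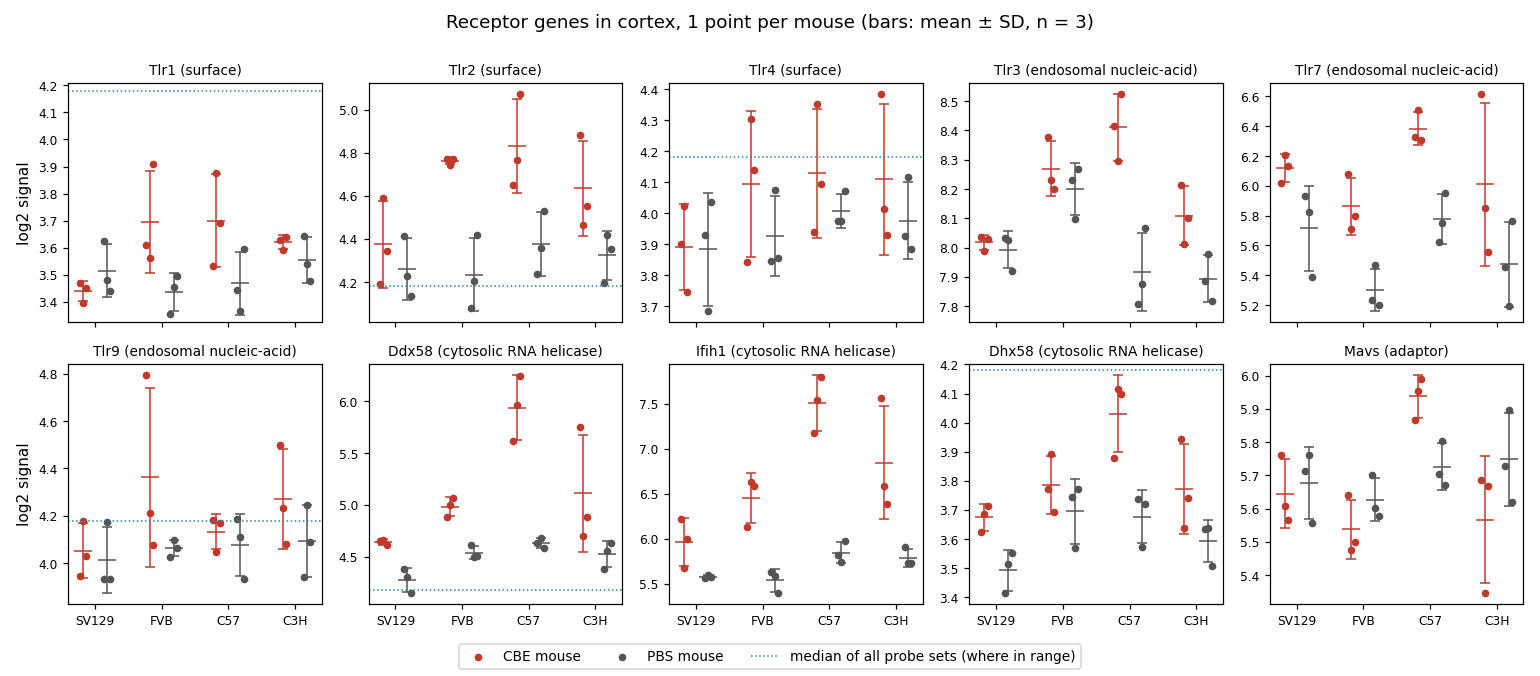
Log2 signal (y axis) of each gene in every mouse, by strain (x axis), with CBE mice left of PBS mice; bars give the mean ± SD of 3 mice and the dotted line the median of all probe sets, 4.18, where it falls within a panel. Ifih1 and Ddx58 separate CBE from PBS mice in all 4 strains, while Tlr1, Tlr4 and Tlr9 overlap in most.

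Among the endosomal receptors Tlr7, the single-stranded RNA receptor of microglia and other phagocytes, changed by 0.40 to 0.61 over the 4 strains. C57 CBE mice had 6.33, 6.51 and 6.31 and C57 PBS mice 5.63, 5.75 and 5.95 (0.61 ± 0.20, adjusted p = 0.45). FVB CBE mice had 6.08, 5.71 and 5.80, against 5.23, 5.47 and 5.20 in FVB PBS mice (0.56 ± 0.20, adjusted p = 0.58). SV129 CBE mice had 6.02, 6.20 and 6.14, against 5.93, 5.82 and 5.39 in SV129 PBS mice (0.40 ± 0.20, adjusted p = 0.39). CBE mice lay above PBS mice without overlap in those 3 strains. In C3H the values 6.62, 5.85 and 5.56 in CBE mice overlapped 5.46, 5.19 and 5.77 in PBS mice, and the change of 0.54 became 0.23 without C3H CBE array 1. The rise in the mean of 4 strains was 0.45 without that array (adjusted p = 0.0019), and 12 of 12 CBE mice were above their strain's PBS mean. No single-strain change of Tlr7 passed.

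Tlr3, the receptor for double-stranded RNA, passed in C57 and in the mean of 4 strains. C57 CBE mice had 8.41, 8.30 and 8.52 and C57 PBS mice 7.81, 7.88 and 8.07, a rise of 0.49 ± 0.08, or 1.41-fold (adjusted p = 0.0036). Without C57 CBE array 3 its adjusted p was 0.052. C3H CBE mice had 8.21, 8.01 and 8.10 and C3H PBS mice 7.89, 7.98 and 7.82, separate but short of the threshold (0.21 ± 0.08, adjusted p = 0.88). FVB CBE mice had 8.38, 8.23 and 8.20, against 8.23, 8.10 and 8.27 in FVB PBS mice (0.07 ± 0.08, adjusted p = 0.96). SV129 CBE mice had 8.04, 7.99 and 8.03, against 8.03, 8.03 and 7.92 in SV129 PBS mice (0.02 ± 0.08, adjusted p = 0.93). FVB and SV129 groups overlapped. Their 95% intervals ran from -0.10 to 0.24 in FVB and from -0.14 to 0.19 in SV129, but the F-test of equal changes over the strains did not pass for Tlr3 (adjusted p = 0.49).

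Tlr9, the CpG DNA receptor, did not pass in the mean of 4 strains (0.14 ± 0.07, adjusted p = 0.47) or in any strain. Its strain changes ran from 0.04 in SV129 to 0.30 in FVB, where 1 mouse was high, with 4.79, 4.21 and 4.08 in CBE mice, against 4.03, 4.10 and 4.06 in PBS mice. CBE and PBS mice overlapped in every strain, and most values lay near the median of all probe sets.

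Of the surface receptors Tlr2, the lipopeptide receptor, was the one that rose. FVB CBE mice had 4.77, 4.75 and 4.77 and FVB PBS mice 4.08, 4.20 and 4.42 (0.53 ± 0.13, adjusted p = 0.15). C57 CBE mice had 4.65, 4.77 and 5.08, against 4.24, 4.36 and 4.53 in C57 PBS mice (0.46 ± 0.13, adjusted p = 0.26). C3H CBE mice had 4.88, 4.47 and 4.55, against 4.20, 4.42 and 4.35 in C3H PBS mice (0.31 ± 0.13, adjusted p = 0.94). The groups were separate in these 3 strains, and in C3H the change was 0.19 without array 1 of the CBE group. SV129 CBE mice, at 4.19, 4.59 and 4.34, overlapped SV129 PBS mice, at 4.42, 4.23 and 4.13 (0.12 ± 0.13, adjusted p = 0.76). As with Tlr7, the average over strains passed although no single strain did.

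Tlr1 and Tlr4 were dim, with means over 24 arrays of 3.55 and 4.0, both under the median of all probe sets. Tlr1, the partner of Tlr2, changed by 0.12 ± 0.05 (95% interval 0.02 to 0.22, adjusted p = 0.33), from -0.08 in SV129 to 0.26 in FVB. FVB was the strain in which all Tlr1 values were higher with CBE: 3.61, 3.56 and 3.91 in CBE mice, against 3.36, 3.46 and 3.50 in PBS mice. Tlr4, the lipopolysaccharide receptor, changed by 0.11 ± 0.07 (95% interval -0.03 to 0.25, adjusted p = 0.60), from 0.01 in SV129 to 0.17 in FVB, and its groups overlapped in all 4 strains. A C3H change of 0.13 became -0.00447 without C3H CBE array 1. A p that misses the threshold at this brightness does not show that these transcripts kept their level.

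The receptors were then set side by side by what they bind. In the mean of 4 strains 5 of 6 nucleic-acid sensors rose and 1 of 3 surface receptors did, beside 0.609% of all genes. The difference between the classes was not tested. Median changes were 0.36 (range 0.14 to 1.00) for the nucleic-acid sensors and 0.12 (range 0.11 to 0.35) for the surface receptors. Within the nucleic-acid sensors the 3 helicases had a median of 0.68 and the 3 endosomal receptors one of 0.20. By strain, the nucleic-acid sensors had a median of 0.27 and the surface receptors 0.01 in SV129 mice. The medians were 0.37 for nucleic-acid sensors and 0.26 for surface receptors with FVB, 0.55 and 0.23 with C57, and 0.38 and 0.13 with C3H. Without C3H CBE array 1 the C3H medians were 0.20 for nucleic-acid sensors and 0.06 for surface receptors. Of the 4 members with a mean at or under the median of all probe sets, Tlr1 and Tlr4 were 2 of 3 surface receptors. Tlr9 and Dhx58 were 2 of 6 nucleic-acid sensors. The mean of Tlr2, 4.47, lay above 49.8% of genes. Those of Ddx58, Tlr7, Ifih1 and Tlr3 lay above 54.2%, 62.7%, 65.7% and 83.2% of genes. Brightness and class thus overlapped, and their separate parts were not tested.

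Counted strain by strain, 3 of the 10 genes rose in C57, Ifih1, Ddx58 and Tlr3, against 0.316% of all genes. By limma 0 of 10 passed in SV129, FVB and C3H, where 0.0135%, 0.135% and 0.0361% of all genes were higher. At an unadjusted p under 0.05 SV129 had 1 such gene of 10 beside 13% of all genes, FVB 6 beside 6.27%, C57 8 beside 5.78% and C3H 5 beside 5.02%. The SV129 count is near its background. Without C3H CBE array 1 the C3H count was 3, beside 3.79% of all genes. With only the strain's own 6 arrays in the fit, Ifih1 passed in FVB (adjusted p = 0.035) and Tlr7 in C57 (0.045), while Tlr3 in C57 did not (0.088). All 3 CBE mice lay above all 3 PBS mice for 4 of 10 genes with SV129, 5 with FVB, 7 with C57 and 4 with C3H, beside 6.52%, 5.09%, 5.82% and 4.5% of all genes. With 3 mice a group the smallest two-sided p of an exact permutation test is 0.1, and the limma calls therefore draw on the spread of all 8 groups.

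**Figure D3:**
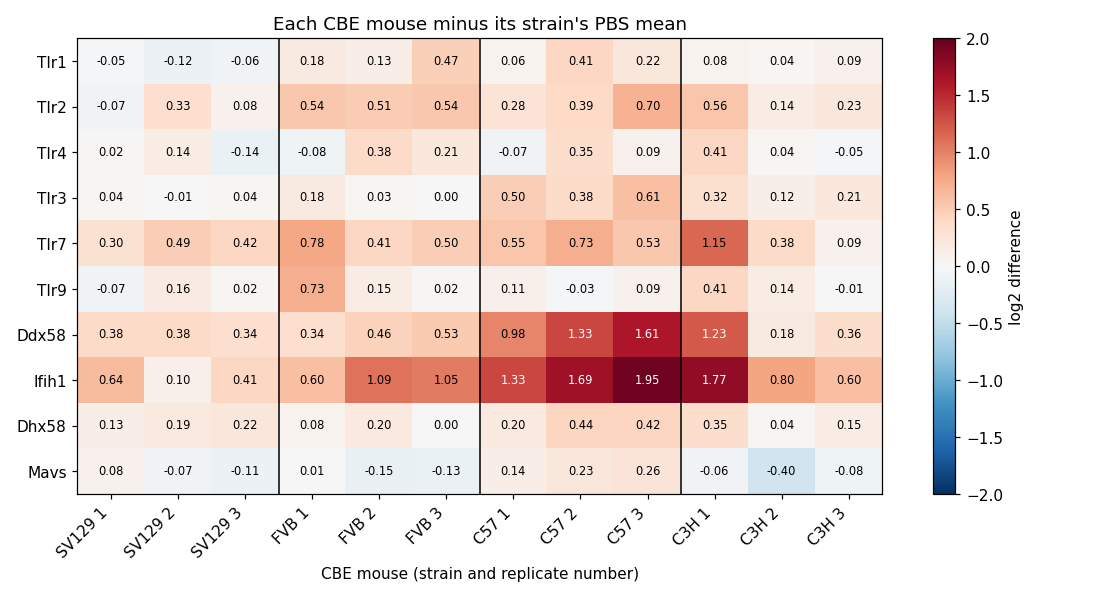
Log2 difference of each CBE mouse (columns, by strain and replicate number) from the mean of its strain's 3 PBS mice, for each gene (rows), with red for higher and blue for lower. For Ifih1 the 3 C57 mice and C3H mouse 1 stand at 1.33 to 1.95, and the other 8 mice at 0.10 to 1.09.

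Whether the change differed between strains was tested with an F-test of equal changes. With all arrays 0 of 10 genes passed by limma (4 had an unadjusted p under 0.05: Tlr3, Ifih1, Ddx58 and Mavs, beside 6.57% of all genes), and 0.00902% of all genes passed. The smallest adjusted p was 0.49, for Tlr3. Without C3H CBE array 1, Ddx58 (adjusted p = 0.010) and Ifih1 (adjusted p = 0.046) passed, as did 0.113% of all genes, while Dhx58 did not (adjusted p = 0.81). In that setting the SV129 change was smaller than the C57 change by 0.94 ± 0.16 for Ddx58 (adjusted p = 0.010) and by 1.27 ± 0.21 for Ifih1 (adjusted p = 0.0094), where 0.203% of all genes passed. The Ddx58 change in C57 also exceeded that in C3H by 1.04 ± 0.17 (adjusted p = 0.028), where 0.0271% of all genes passed. With that array in the fit the same SV129 minus C57 estimates had adjusted p of 0.27 for Ddx58 and 0.20 for Ifih1. Their standard errors were then 0.25 and 0.30. That array belongs to neither SV129 nor C57, so leaving it out changed the pooled spread and not these estimates. The array was singled out by its values for these genes, so calls made without it cannot decide whether the changes differ between strains. The C3H CBE group had an SD of 0.63 for Ifih1 and 0.56 for Ddx58, against 0.31 for each in the C57 CBE group. No difference of Tlr7 between strains passed in either setting (adjusted p = 0.99 with all arrays and 0.89 without that array).

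Levels in PBS mice describe the strains before any CBE. Tlr3 was the 1 member of 10 whose PBS level differed between strains by the F-test (adjusted p = 0.039), beside 13% of all genes. FVB mice averaged 8.20 ± 0.09, SV129 mice 7.99 ± 0.06, C57 mice 7.92 ± 0.13 and C3H mice 7.89 ± 0.08 (SD, n = 3 each). FVB lay above C57 by 0.28 ± 0.08 (adjusted p = 0.0333, with 7.91% of all genes different) and above C3H by 0.31 ± 0.08 (adjusted p = 0.0498, with 2.28% different). Its neighbours in that order, FVB and SV129, did not pass (adjusted p = 0.18), nor did SV129 and C57 (0.68) or C57 and C3H (0.93). This call was fragile: it ended without FVB PBS array 1 (adjusted p = 0.13) or array 3 (0.17), and without C57 PBS array 1 or 2 or C3H PBS array 1 or 3 (0.066 to 0.074). Strain differences in sequence under a probe can change its signal, and their part was not tested.

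For the other 9 genes no F-test of PBS levels passed, with adjusted p from 0.26 for Tlr7 to 0.97 for Tlr9. For Tlr7 it was C57 at 5.78 ± 0.17, SV129 at 5.72 ± 0.29, C3H at 5.47 ± 0.29 and FVB at 5.30 ± 0.14. For Ifih1 the order was C57 at 5.85 ± 0.12, C3H at 5.79 ± 0.10, SV129 at 5.58 ± 0.02 and FVB at 5.54 ± 0.12. For Ddx58 it was C57 at 4.63 ± 0.05, FVB at 4.54 ± 0.06, C3H at 4.52 ± 0.13 and SV129 at 4.28 ± 0.12. In these 3 genes C57 stood at the top of the order, but no neighbouring strains in it differed by the test. Tlr2 lay between 4.23 and 4.38, Mavs between 5.63 and 5.75, Tlr9 between 4.01 and 4.09 and Tlr4 between 3.88 and 4.01 in the PBS means of the 4 strains. Dhx58 means ran from 3.49 in SV129 to 3.70 in FVB, and Tlr1 means from 3.44 in FVB to 3.55 in C3H. The SDs of 3 PBS mice ran from 0.07 to 0.11 for Dhx58, and SV129 lay below FVB by 0.20 ± 0.09 (adjusted p = 0.23).

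For each member that rose, the 3 genes most like it were sought by Pearson r over the 24 arrays, after each strain's mean was subtracted. The arrays share the CBE and PBS groups, so the contrast between them enters r, which is given as a description. Over the 23 arrays without C3H CBE array 1 the 18 values of r ran from 0.81 to 0.97. Ifih1 was most like Oasl2 (r = 0.97), Usp18 (0.97) and Rnf213 (0.96), and Ddx58 most like Cybb (0.95), Sp100 (0.95) and Ifih1 itself (0.95). Dhx58 was nearest to Oas2 (0.91), Sp100 (0.86) and Phf11b (0.85), and Tlr3 to Oas1g (0.89), Parp14 (0.86) and Oasl1 (0.85). Tlr7 was nearest to the phagosomal metal transporter Slc11a1 (0.89), the complement subunit C1qb (0.89) and the chemokine Ccl3 (0.88). Tlr2 was nearest to the chemokine Ccl12 (0.89), Fyb (0.88) and Ifitm3 (0.87).

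The receptors work with partners, and 58 of 62 listed partner genes were measured. In the mean of 4 strains 9 of the 58 rose, beside 0.609% of all genes, and 0 fell. The median change of the 58 was 0.04. Transcription of the interferon programme runs through Irf7, and it rose the most of the partners, by 1.25 ± 0.14 (adjusted p = 1.8e-05). Irf7 averaged 6.40 ± 0.33 in C57 CBE mice and 4.51 ± 0.10 in C57 PBS mice, and 4.45 ± 0.08 in SV129 CBE mice and 3.97 ± 0.11 in SV129 PBS mice (SD, n = 3 each). Irf7 was the 1 that passed of 9 measured genes in a list of interferon and NF-kappaB transcription factors that also holds the NF-kappaB inhibitors Nfkbia, Nfkbie and Tnfaip3. Among helicase partners 3 of 11 rose: Eif2ak2 (PKR), a kinase that binds double-stranded RNA, by 0.72 ± 0.10 (adjusted p = 2.4e-04), Trim25, a ubiquitin ligase acting on RIG-I, by 0.40 ± 0.06 (adjusted p = 5.4e-04), and Zc3hav1, an antiviral RNA-binding protein, by 0.39 ± 0.08 (adjusted p = 0.022). Zc3hav1 did not pass over all probe sets or in an ordinary linear model, or without C57 CBE array 2 (0.053).

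Accessory proteins of Toll-like receptors gave 3 rises among 9, beside 0.609% of all genes. Ly86 (MD-1) and Cd180 (RP105), which form a complex that resembles Tlr4 and its partner MD-2, rose by 0.93 ± 0.14 (adjusted p = 9.1e-04) and 0.86 ± 0.18 (adjusted p = 0.015). Unc93b1, which carries Tlr3, Tlr7 and Tlr9 to endosomes, rose by 0.35 ± 0.07 (adjusted p = 0.012). Within C57, Ly86 rose by 1.41 ± 0.29 (adjusted p = 0.029). It was at 1.17 in FVB (adjusted p = 0.19), 0.99 in C3H (0.58) and 0.16 in SV129 (0.87), and the F-test of equal changes did not pass (adjusted p = 0.74). For Ly86 the C3H CBE mice ran from 8.22 to 9.96 (SD 0.93), and the 0.99 includes C3H CBE array 1. Of 5 sensors of cytosolic DNA or Z-form nucleic acid, Zbp1 rose by 0.59 ± 0.12 (adjusted p = 0.011) and Sting1, the adaptor of cytosolic DNA sensing, by 0.30 ± 0.05 (adjusted p = 0.0016). Ifi204 passed in C57 (1.59 ± 0.30, adjusted p = 0.018), and whether its change differed between strains did not pass the F-test (adjusted p = 0.60). Cd180, Unc93b1 and Zbp1 did not pass in an ordinary linear model.

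Other groups of the pathway held no gene past the threshold in the limma fit, where 10.7% of all genes had an unadjusted p under 0.05. Of 6 other Toll-like receptors 0 passed and 1 had an unadjusted p under 0.05, Tlr13, an endosomal receptor of bacterial ribosomal RNA, at 0.41 ± 0.12 (adjusted p = 0.18). Of 12 adaptors and kinases 0 passed and 1 had an unadjusted p under 0.05, with changes from -0.08 to 0.11. That list includes Myd88, used by most Toll-like receptors (0.10 ± 0.06, adjusted p = 0.59), and Ticam1, used by Tlr3 and Tlr4 (0.02 ± 0.06, adjusted p = 0.95). Of 6 cytokine outputs 0 passed and 1 had an unadjusted p under 0.05, with changes from -0.00311 to 0.10. Ifnb1, the interferon that Ddx58 and Ifih1 switch on, was at 0.01 ± 0.04 (adjusted p = 0.98). Levels of these 6 genes are not described here, and a missed threshold does not show that a transcript kept its level. In single strains 7 of the 58 partner genes rose in C57, beside 0.316% of all genes. In SV129, FVB and C3H 0 passed, where 0.0135%, 0.135% and 0.0361% of all genes were higher, so 0 of 58 is near those shares.

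**Figure D4:**
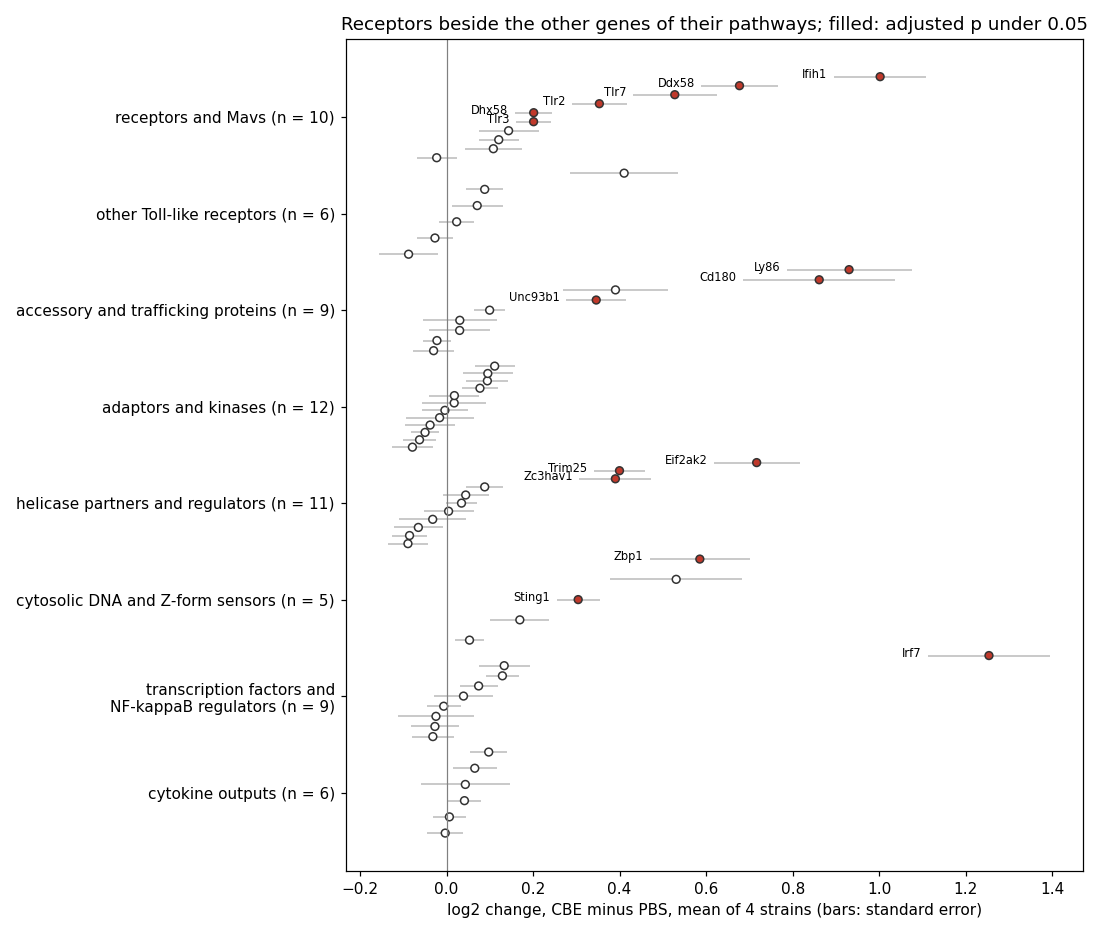
Log2 change, CBE minus PBS in the mean of 4 strains (x axis), with its standard error, for the 10 genes and for 58 partner genes in 7 lists (y axis). Filled points are named and have adjusted p under 0.05 over all genes; Irf7 at 1.25 and Ifih1 at 1.00 lie farthest to the right, and the 12 adaptors and kinases lie between -0.08 and 0.11.

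Markers of the cells that could carry these receptors were measured on the same arrays. Of 9 measured microglia markers 1 rose, Csf1r (adjusted p = 0.033), and 4 had an unadjusted p under 0.05, with a median change of 0.16. The mean microglia marker level per array ran from 6.52 to 6.65 in FVB CBE mice and from 6.40 to 6.47 in FVB PBS mice. It ran from 6.71 to 6.87 in C57 CBE mice and 6.50 to 6.74 in C57 PBS mice, and from 6.58 to 7.11 in C3H CBE mice and 6.52 to 6.65 in C3H PBS mice. In SV129 it was 6.32 to 6.40 in CBE mice and 6.21 to 6.54 in PBS mice. The level was separate between CBE and PBS mice in FVB and overlapped in the other 3 strains. By limma 0 of 9 markers passed in any single strain. At an unadjusted p under 0.05 there were 4 in C3H with C3H CBE array 1 included, 2 each in C57 and FVB, and 0 in SV129. The shares of all genes were 5.02% in C3H, 5.78% in C57, 6.27% in FVB and 13% in SV129. The part of microglia in the changes of Tlr2 and Tlr7 was not tested. Lymphocyte markers (0 of 6 passed, 0 at an unadjusted p under 0.05) lay between 3.29 and 3.89 on every array, under the median of all probe sets. Monocyte and neutrophil markers (0 of 6 passed, 1 at an unadjusted p under 0.05) had Ccr2 at 3.38 to 3.62 and S100a8 at 3.31 to 3.57, and Ly6c2 up to 4.88. The 1 was Plac8, at 3.44 to 4.14, which changed by 0.20 ± 0.05 by limma (adjusted p = 0.089). The mean level of this list was separate in SV129 (3.81 to 3.94 with CBE, 3.71 to 3.74 with PBS). It overlapped in FVB, C57 and C3H. Of 7 astrocyte markers 1 rose, Gfap (1.15 ± 0.13, adjusted p = 2.8e-05), and 2 had an unadjusted p under 0.05, with a median change of 0.03. The mean astrocyte marker level, Gfap included, was separate in FVB (9.25 to 9.30 with CBE, 8.98 to 9.16 with PBS). It was also separate in C57 (9.25 to 9.38, 9.02 to 9.10) and C3H (9.19 to 9.51, 8.97 to 9.14), and overlapped in SV129 (9.07 to 9.20, 8.77 to 9.16). Median changes of the 7 astrocyte markers were -0.0048 in FVB, -0.02 in C57, 0.10 in C3H and 0.06 in SV129. Gfap alone changed by 1.32, 1.43, 1.18 and 0.68 in the same strains, so the mean level does not describe the list as a whole. The part of astrocytes in the change of Tlr3 was not tested. In the same limma fit 0 of 7 neuronal markers passed (1 at an unadjusted p under 0.05), as did 0 of 5 oligodendrocyte and 0 of 4 endothelial markers (0 at an unadjusted p under 0.05 in each). The mean neuronal marker level was lower in C57 CBE mice (10.20 to 10.28) than in C57 PBS mice (10.30 to 10.39), without overlap. The 7 neuronal changes in C57 ran from -0.19 to -0.03. In SV129, FVB and C3H that level overlapped.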

How the data were processed

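RNA from the cortex of 24 mice was hybridised to 24 arrays, 3 for each strain and agent, per the labels. A whole-transcript kit labelled 100 ng of total RNA per mouse, per the labels' protocols. The deposited log2 values were made by the authors with Partek and RMA (robust multi-array average), per the submitters' processing notes; no version or genome build is given in the sources used here. The log base was inferred from the highest value, 14.09. Scanner files and detection calls were not used here, so the number of arrays, not a count of molecules, sets the precision.

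Of 41034 probe sets 23521 had 1 gene symbol, 1814 several and 15699 none given in the platform annotation, which can be old. The probe set of highest mean per symbol left 22180 genes. limma 3.58.1 in R 4.3.3 fitted 8 group means with moderated variances (16 residual and 5.10 prior degrees of freedom). Contrasts were CBE minus PBS per strain, their equally weighted mean, the F-test of equal changes and the F-test of PBS levels with their pairwise contrasts, two-sided, adjusted over 22180 genes at a threshold of 0.05. The procedure was also run on simulated data in which each gene had the same spread in all 8 groups, and no result here rests on that run. Alternatives were quantile normalization, median centring, a filter on dim genes, all probe sets, other variance models, only the arrays of a contrast, a replicate block, averaged probe sets and each array left out.

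All 10 members were named, partner genes where past the threshold in the mean or in a strain (others of the lists as examples chosen after their values were seen: Tlr13, Myd88, Ticam1 and Ifnb1), and the 3 most similar genes for each member that rose. Members and lists were chosen with earlier results of these data known. The p-values measure the spread between single mice of a group; litters and cages are not given in the labels.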

Additional observations from a re-analysis of the deposited data

How the results depend on the processing

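Across 2262 recomputed values of single genes (10 members, 7 contrasts, each alternative and each array left out), 2235 stayed on their side of the threshold, 19 lost a call, 8 gained one and 0 turned a call round; 16 values that were never past the threshold changed sign. The 6 rises in the mean of 4 strains all held under quantile normalization, median centring, trend and robust variances and an ordinary linear model; over all probe sets Dhx58 did not pass (0.050), and with dim genes left out 6 members were tested and 5 passed, Dhx58 not being among those tested. For members called in FVB (0 of 10), the number was 1 with only the strain's own arrays, and 0 to 1 when single arrays were left out. In C3H (0) it was 0 to 1, the 1 being Ifih1 without C3H CBE array 3 (1.29, adjusted p = 0.0086). For changes that differ between strains (0) it was 0 to 2, the 2 being Ddx58 and Ifih1 without C3H CBE array 1. That array was singled out by its values for these genes. For PBS levels (1, Tlr3) it was 0 with each array centred on its median, 0 over all probe sets, 0 with only the PBS arrays, and 0 to 1 when single arrays were left out. Beyond the fewer arrays or the larger number of features tested, the cause was not tested. Dhx58 passed in C57 without C57 CBE array 1 or C3H CBE array 1 (adjusted p = 0.047 each).

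Replicate numbers recur in every group. In a paired check, same-numbered CBE and PBS arrays of a strain had deviations that correlated from -0.1 to 0.16, and 11 of 24 arrays correlated best with their own number, so the numbers were not taken as pairs. With a replicate block 6 members passed in the mean of 4 strains, 3 in C57, 0 in SV129, FVB and C3H, 0 for differences between strains and 1 for PBS levels, as without it.

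Brightness sets a limit: Tlr1, Tlr4, Tlr9 and Dhx58 averaged at or under the median of all probe sets, 4.18, and changes there can be compressed.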
